A study of Mus musculus with 6 samples.

Results

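The genes described here belong to cholesterol and fatty acid synthesis and its control by the sterol regulatory element binding proteins (SREBPs): enzymes of both pathways, the SREBPs and their regulators, and sterol transport. They were taken from a fixed list of 34 names, and for each gene the probe set that names only that gene and has the highest mean over the 6 arrays was read. Acat2 and Soat1 had no such probe set and were not measured here, which left 32 genes of 19938 with a probe set. These were 17 enzymes of the cholesterol arm, 8 enzymes of the fatty acid arm, 6 genes of control and transport (Insig1, Insig2, Srebf1, Srebf2, Scap and Stard4) and Ggps1 of the isoprenoid branch. The 32 genes were at or above the level filter of 5.37 (log2) on all 6 arrays, and 11516 genes passed that filter on at least 1 array.

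Bone marrow of Spic(igfp/igfp) mice was grown with GM-CSF at 20 ng/ml, a culture that gives macrophages and dendritic cells. All 6 arrays carry that genotype, in which both Spic copies hold the igfp allele, so no array comes from wild-type cells. After 6 days the cultures received heme at 80 µM (typed as 80 µm in the labels) or vehicle, a salt solution with ammonium hydroxide. Adherent cells were scraped after 6, 24 and 72 h, with 1 array for each treatment and time, and floating cells were discarded. The labels do not say how many mice or dishes a sample holds. Time after treatment and time in culture cannot be told apart.

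Cells make cholesterol from acetyl-CoA through mevalonate, the isoprenoid diphosphates, squalene and lanosterol, and they make fatty acids from the same acetyl-CoA through malonyl-CoA and palmitate. SREBP-2 acts mainly on the cholesterol enzymes and SREBP-1 mainly on the fatty acid enzymes. When the endoplasmic reticulum is poor in sterol, SCAP carries the SREBPs to the Golgi, where they are cut and released to the nucleus. When it is rich in sterol, the INSIG proteins hold SCAP back, while the oxysterol receptor LXR turns on genes that export cholesterol.

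The promoters of 4 members are shown because these members bracket the results: Hmgcs1, Idi1 and Cyp51 of the cholesterol arm lay above vehicle at 6 h and below it later with heme, and Fads2 of the fatty acid arm lay above vehicle at all 3 times. Each line gives the 250 bases before the RefSeq transcript start (build GRCm38.p6), 5′ to 3′ on the gene's strand, with the motif matches in capitals.
Hmgcs1 (chr13:119690101-119690350, plus strand): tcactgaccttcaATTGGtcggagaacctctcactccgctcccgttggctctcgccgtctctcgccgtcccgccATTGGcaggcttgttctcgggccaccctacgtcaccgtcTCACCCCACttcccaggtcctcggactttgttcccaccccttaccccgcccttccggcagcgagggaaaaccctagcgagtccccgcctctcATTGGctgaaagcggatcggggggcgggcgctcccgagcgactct
Idi1 (chr13:8885356-8885605, plus strand): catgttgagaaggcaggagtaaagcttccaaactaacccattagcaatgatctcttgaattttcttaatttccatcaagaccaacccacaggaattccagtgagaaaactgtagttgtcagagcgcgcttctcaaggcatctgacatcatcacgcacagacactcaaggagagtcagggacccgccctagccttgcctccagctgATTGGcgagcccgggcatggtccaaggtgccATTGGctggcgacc
Cyp51 (chr5:4104698-4104947, minus strand): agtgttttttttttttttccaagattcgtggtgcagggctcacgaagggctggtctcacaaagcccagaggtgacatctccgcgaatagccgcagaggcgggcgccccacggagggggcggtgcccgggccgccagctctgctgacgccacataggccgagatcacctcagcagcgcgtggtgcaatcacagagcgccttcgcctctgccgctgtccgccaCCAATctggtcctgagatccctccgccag
Fads2 (chr19:10101504-10101753, minus strand): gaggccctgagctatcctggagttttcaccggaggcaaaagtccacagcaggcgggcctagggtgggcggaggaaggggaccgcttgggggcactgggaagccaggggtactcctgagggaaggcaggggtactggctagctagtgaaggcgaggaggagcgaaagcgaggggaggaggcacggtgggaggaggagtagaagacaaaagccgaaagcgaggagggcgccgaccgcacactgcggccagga
The motifs searched on both strands were a sterol regulatory element, TCACNCCAC, the NF-Y box, CCAAT, which appears as ATTGG when it lies on the opposite strand, and the E-box, CACGTG. No pair of these overlaps in the windows printed. NF-Y is a general promoter factor known to act beside SREBPs. The search ran on windows from 250 bases before to 50 bases after each start, and 25 of the 32 measured members had such a window in the table, 33 windows in all because some genes have several starts.

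In the cholesterol arm, each of the 14 genes with a window held an NF-Y box in at least 1 of them (14 of 17 windows, 82.4%). In the fatty acid arm 2 of 5 windows held one (40.0%), those of Acly and Fasn, and over all 32851 windows of the table the share was 37.4%. Mvk had the most matches, 5, while Idi1 had 2, at 45 and 14 bases before the start, and Cyp51 had 1, at 29 bases. The sterol regulatory element as spelled here was found in 1 member window, that of Hmgcs1 at 137 bases before the start, against 1.24% of all windows. The E-box was in 6 of 33 member windows (18.2%), those of Dhcr7, Hsd17b7, Insig1, Sc5d and Scap, against 7.15% of all. The printed Fads2 stretch held none of the 3 motifs. These are letter matches and not measured binding.

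The deposited values are log2 signals after quantile normalization by RMA (robust multi-array average). The array medians over all probe sets lay between 5.34 and 5.45, with the heme 6 h array the highest and also the least spread (SD 2.19, against 2.21 to 2.25). Heme acted on its known targets in every pair: the mean heme minus vehicle difference was 3.88 for Spic and 2.59 for Hmox1, the heme oxygenase. All 10 macrophage and dendritic cell markers were above the filter on all arrays, with a summed level of 14.68 to 14.90 (log2). The measured markers of T cells, NK cells, mast cells and basophils, and the erythroid Klf1, were below it on all arrays. The B cell marker Cd79b was just above it on each, at 5.39 to 5.75, with Cd79a and Ms4a1 below. Of 4 fibroblast markers 3 or 4 were above it on each array, with a summed level of 8.09 to 9.56.

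Most members fell with time in both treatments. From 6 to 72 h all 32 were lower in vehicle and 29 of 32 with heme, against 6647 and 5063 of 11516 genes kept. The 3 others with heme were Insig2 at 0.82, Scap at 0.10 and Ggps1 at 0.005. Over the vehicle and heme arrays together, 23 of the 32 members were lower at 72 h than at 6 h by limma's test (Benjamini-Hochberg adjusted p at or under 0.05), against 3.53% of all genes kept. None was higher, against 3.06% of all genes kept. The calls held 14 of 17 cholesterol enzymes, 6 of 8 fatty acid enzymes and 3 of the 6 control and transport genes. The median change was -1.42 in the cholesterol arm and -1.56 in the fatty acid arm, against 0.00 over all genes kept. The fit sets 2 arrays, 1 of each treatment, against 2 others, and its error comes from how the heme difference varied over the 3 times, drawn toward the variance shared by all genes (2 residual and 7.17 prior degrees of freedom).

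At the head of the cholesterol arm, Hmgcs1, which condenses acetyl-CoA units into HMG-CoA, read 9.35, 9.21 and 8.38 on the vehicle arrays at 6, 24 and 72 h and 9.68, 8.65 and 7.81 on the heme arrays. Its 72 h values were below all its earlier ones, and it fell by 1.42 ± 0.23 on the log2 scale (standard error; adjusted p = 0.00694, limma). The 3 mevalonate steps that follow fell as well, with changes of -1.23 ± 0.18 for Mvk (adjusted p = 0.00349), -0.85 ± 0.16 for Pmvk (adjusted p = 0.0145) and -1.004 ± 0.185 for Mvd (adjusted p = 0.0119). Most of the Pmvk and Mvd change lay after 24 h, with 24 h minus 6 h changes of -0.04 and -0.08.

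Idi1, the isomerase that balances the pair of isoprenoid building blocks, had the largest fall of the arm. It read 8.78, 8.08 and 7.0 in vehicle and 9.21, 7.51 and 5.92 with heme, so that both series stepped down at each time and the heme series crossed from above to below. The fall was 2.54 ± 0.30 over both treatments (5.81-fold; adjusted p = 0.00145), 3.44-fold in vehicle alone and 9.81-fold with heme. A further Idi1 probe set gave nearly the same values, with changes of -1.80 in vehicle and -3.29 with heme.

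Fdps, which joins these units into farnesyl diphosphate, the last common precursor of sterols, dolichol and prenyl groups, read 9.31, 8.35 and 6.97 in vehicle and 9.33, 8.20 and 6.74 with heme. The treatments stayed within 0.24 of each other at each time while the level dropped by 2.47 ± 0.17 (5.52-fold; adjusted p = 0.000137). Fdps was also called for each step, with -1.05 from 6 to 24 h (adjusted p = 0.0361) and -1.42 from 24 to 72 h (adjusted p = 0.0106). Ggps1, which draws on the same precursor for geranylgeranyl groups, changed by -0.21 ± 0.18 (adjusted p = 0.618).

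The squalene and lanosterol steps fell too. Fdft1, squalene synthase, fell by 1.49 ± 0.20, and Sqle, the squalene epoxidase known as a slow step of the pathway, fell by 1.34 ± 0.17. Lss, which closes the ring to lanosterol, read 7.68, 7.16 and 5.66 in vehicle and 7.87, 6.93 and 5.90 with heme. Its 72 h arrays lay more than 1 log2 unit below all the others, and the fall of 2.00 ± 0.18 was about the same in vehicle (4.06-fold) and with heme (3.91-fold).

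Past lanosterol, Cyp51, the lanosterol demethylase, read 9.02, 8.75 and 7.40 in vehicle and 9.30, 8.04 and 6.76 with heme. It fell by 2.08 ± 0.24 (4.24-fold; adjusted p = 0.00131), with nearly all of the vehicle change after 24 h and the heme change spread over both steps. Msmo1, the methyl sterol oxidase, read 9.95, 9.73 and 8.81 in vehicle and 10.13, 9.20 and 8.19 with heme, the same shape. It fell by 1.54 ± 0.22 (adjusted p = 0.00294), and its partners in removing the methyl groups, Nsdhl and Hsd17b7, had changes of -1.54 ± 0.16 and -1.59 ± 0.17. Sc5d, a sterol desaturase, fell by 1.29 ± 0.20 (adjusted p = 0.00499).

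The 3 cholesterol enzymes that did not pass act after lanosterol, Tm7sf2 and Dhcr7 as reductases and Ebp as an isomerase. Tm7sf2 changed by -0.53 ± 0.20 (adjusted p = 0.179), Ebp by -0.32 ± 0.17 (adjusted p = 0.381) and Dhcr7 by -0.47 ± 0.20 (adjusted p = 0.252). Dhcr7, the reductase that ends one route to cholesterol, read 9.06, 8.73 and 8.73 in vehicle and 8.39, 8.53 and 7.77 with heme. It was flat in vehicle after 24 h and lowest on the heme 72 h array.

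**Figure D1:**
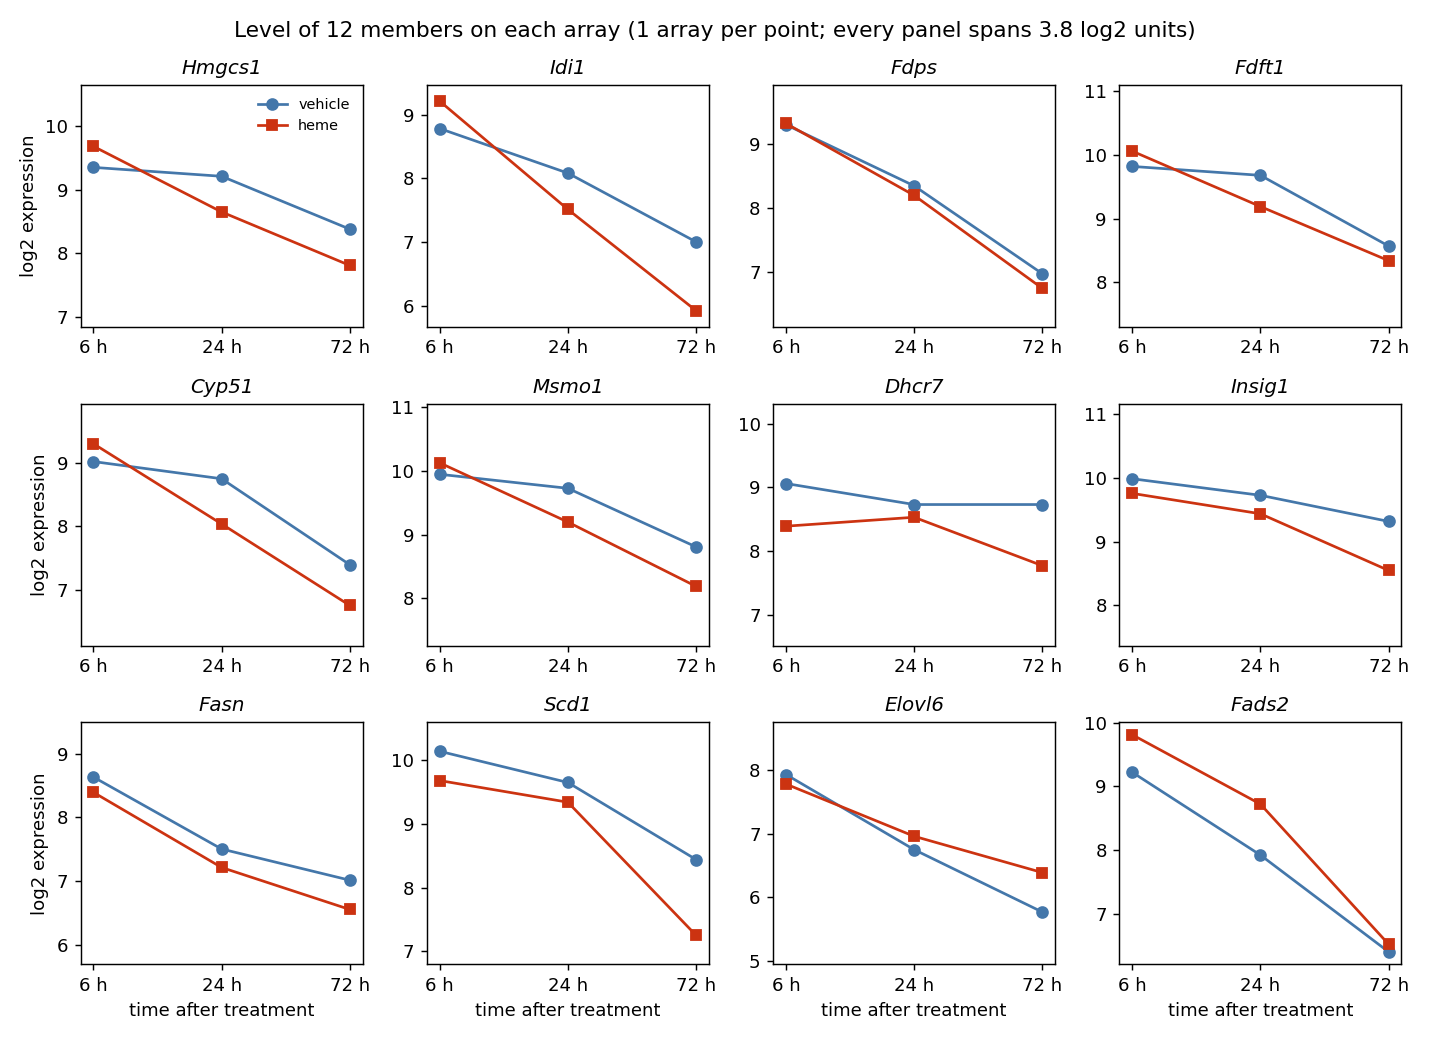
Log2 expression (vertical axis) of 12 members at 6, 24 and 72 h (horizontal axis, evenly spaced), with vehicle as circles and heme as squares and 1 array behind each point. Idi1 dropped from 9.21 to 5.92 with heme and from 8.78 to 7.0 in vehicle, Fads2 ended at 6.52 and 6.40, and Dhcr7 read 8.73 in vehicle at both 24 and 72 h.

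Fads2 had the largest fall of all 32 members. It encodes the desaturase that opens the route from essential to long polyunsaturated fatty acids, and it read 9.22, 7.92 and 6.40 in vehicle and 9.81, 8.72 and 6.52 with heme. The heme array was the higher of each pair, yet every step down with time was larger than any gap between treatments. The fall was 3.06 ± 0.20 (8.32-fold; adjusted p = 0.000137), and it was called from 6 to 24 h (-1.20, adjusted p = 0.0385) and from 24 to 72 h (-1.86, adjusted p = 0.00737). Its neighbour in the same route, Fads1, changed by -0.55 ± 0.19 (adjusted p = 0.136) and was at 8.34 or above on all arrays.

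Of the enzymes that make and shape saturated chains, Fasn, the palmitate synthase, read 8.63, 7.50 and 7.01 in vehicle and 8.39, 7.21 and 6.55 with heme. Its fall of 1.73 ± 0.16 (adjusted p = 0.00052) was already 1.16 ± 0.16 by 24 h (adjusted p = 0.0287). Elovl6, which lengthens palmitate, read 7.93, 6.75 and 5.77 in vehicle and 7.78, 6.96 and 6.39 with heme, and fell by 1.78 ± 0.20 (adjusted p = 0.00122). Its fall was smaller with heme (2.63-fold) than in vehicle (4.46-fold), the reverse of Fasn (3.58-fold and 3.09-fold).

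The stearoyl-CoA desaturases, which make monounsaturated chains, were called for the later step and not for the earlier one. Scd1 read 10.14, 9.65 and 8.44 in vehicle and 9.68, 9.34 and 7.25 with heme, and its change was -0.41 by 24 h and -1.65 ± 0.22 from 24 to 72 h (adjusted p = 0.0203). Scd2 read 11.36, 10.94 and 9.94 in vehicle and 11.19, 11.08 and 9.85 with heme, with a change of -1.12 ± 0.17 over the later step (adjusted p = 0.0234). The treatments differed by at most 0.18 for Scd2 and by 1.19 for Scd1 at 72 h.

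The entry steps of the arm had changes under 1 log2 unit. Acly, which makes cytosolic acetyl-CoA from citrate for both arms, fell by 0.74 ± 0.16 (adjusted p = 0.025). Acaca, which makes malonyl-CoA, changed by -0.61 ± 0.17 (adjusted p = 0.0714), and it passed when its 2 probe sets were averaged. Its further probe set read -0.42 in vehicle and -1.37 with heme from 6 to 72 h, against -0.69 and -0.53 for the one used here.

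Among the control genes, Insig1, itself an SREBP target, read 9.99, 9.73 and 9.32 in vehicle and 9.76, 9.44 and 8.55 with heme, and fell by 0.94 ± 0.19 (adjusted p = 0.0176). Srebf2, which encodes SREBP-2, fell by 1.01 ± 0.19 (adjusted p = 0.0146), and Stard4, a sterol carrier, fell by 1.26 ± 0.18 (adjusted p = 0.00322). Srebf1 changed by -0.53 ± 0.18 (adjusted p = 0.133). Insig2 changed by 0.30 ± 0.24 (adjusted p = 0.587, limma), with -0.22 in vehicle and 0.82 with heme. Scap, the sterol sensor that escorts the SREBPs, read 7.57 to 7.80 on the 6 arrays, and its change was 0.00 ± 0.17 (adjusted p = 0.995).

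Taken in steps, 3 members were called lower from 6 to 24 h (Fdps, Fasn and Fads2), against 0.373% of all genes kept. From 24 to 72 h, 6 were called lower (Fdps, Lss, Nsdhl, Scd1, Scd2 and Fads2), against 0.339%. These step counts moved with the scaling of the arrays: with arrays centred on their medians they were 5 and 16, and with cyclic loess the first was 1. The calls over all genes moved too, from 43 to 89 and from 39 to 93 genes called lower with centring, and from 43 to 16 for the first step with cyclic loess. The 23 calls from 6 to 72 h were the same genes under each scaling, level filter and variance setting tried.

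In single treatments, where 1 array stands against 1 and no test was possible, 25 members were lower by 1.5-fold or more at 72 h than at 6 h in vehicle, against 7.26% of all genes kept. With heme there were 26, against 6.7%. The cholesterol arm had 15 of 17 in each treatment. Its median change was -1.14 in vehicle and -1.66 with heme, and that of the fatty acid arm was -1.53 in vehicle and -1.37 with heme, while all genes kept had medians of -0.05 and 0.05. A larger fall (or smaller rise) with heme than in vehicle was seen for 22 of 32 members, 13 of 17 in the cholesterol arm and 5 of 8 in the fatty acid arm, against 36.3% of all genes kept. With 1 array per treatment and time, this difference between treatments has no residual degrees of freedom and was not tested.

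**Figure D2:**
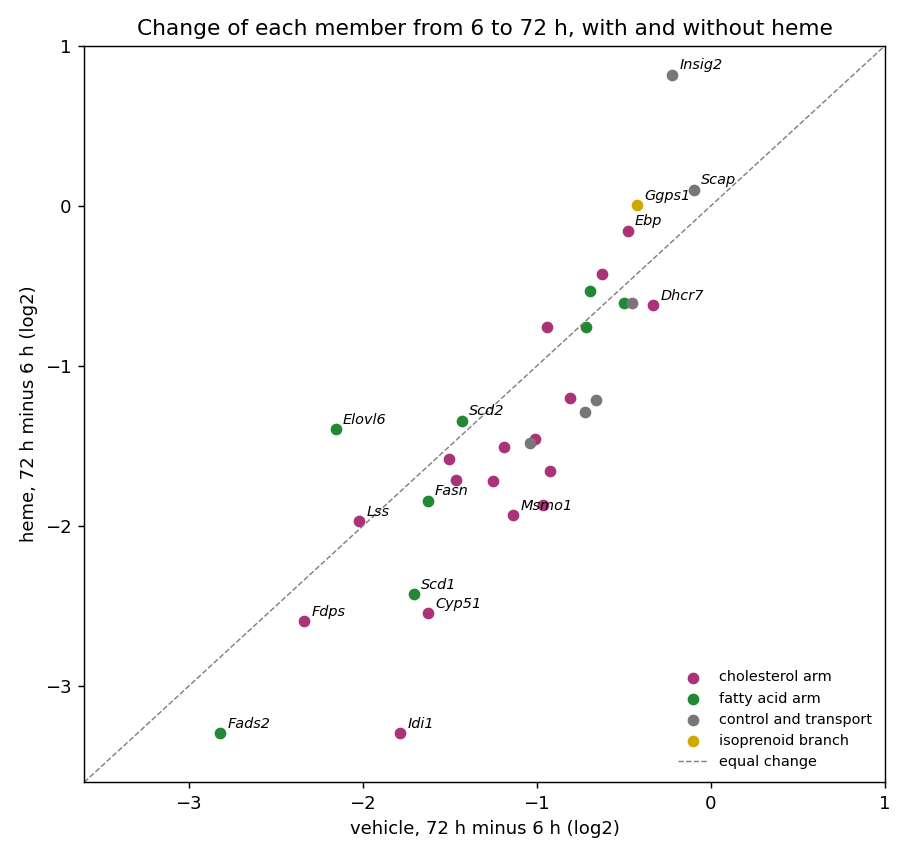
Change from 6 to 72 h in vehicle (horizontal axis, log2) against the change with heme (vertical axis, log2), 1 point per member, coloured by role, with the line of equal change dashed. Most members lie below the line, Idi1 farthest at -1.78 in vehicle and -3.29 with heme, while Elovl6 lies above it at -2.16 and -1.40 and Insig2 at -0.22 and 0.82.

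Markers of other cells and states changed over the same hours. The 7 measured proliferation markers were all called lower from 6 to 72 h by limma, against 3.53% of all genes kept. Their median change was -1.60 (-1.87 in vehicle, -1.34 with heme), and Top2a fell by 2.40 and Mki67 fell by 2.20. Of 9 neutrophil markers that passed the filter, 6 were called lower (S100a8, S100a9, Ly6g, Camp, Ngp and Ltf), against the same 3.53%. The median over the 9 was -2.27. The summed neutrophil level (log2) was 13.57 in vehicle and 13.66 with heme at 6 h, 12.29 and 13.33 at 24 h, and 11.85 and 12.33 at 72 h. Mmp8, not among the 6, made up most of the 72 h sums, at 11.35 in vehicle and 11.78 with heme. Its change from 6 to 72 h went the other way, at 0.87 ± 0.24 (adjusted p = 0.0736, limma). Fibroblast markers went up, with a median of 0.73 over 4 genes (0.38 in vehicle, 1.07 with heme), of which Dcn passed the test at 1.57 ± 0.27 (adjusted p = 0.00926, limma). Of the 10 macrophage and dendritic cell markers 2 were called higher, against 3.06% of all genes kept, Mertk by 1.33 ± 0.20 and Csf1r by 0.74 ± 0.17. The part of these lists in the members' fall was not tested. The RNA came from all adherent cells together, with floating cells discarded. In such RNA, fewer adherent cells of a type and less RNA per cell cannot be told apart.

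No member passed the test for heme against vehicle over the 3 times. The count was 0 of 32 lower and 0 of 32 higher by limma with adjusted p at or under 0.05, against 0.59% of all genes kept called lower and 1.13% called higher. At an unadjusted p at or under 0.05 there were 6 members (18.8%), against 10.6% of all genes kept. These were Dhcr7 at -0.61 ± 0.17 (standard error; adjusted p = 0.148), Scd1 at -0.66 ± 0.18 (adjusted p = 0.150), Fads2 at 0.50 ± 0.16 (adjusted p = 0.234), Insig1 at -0.43 ± 0.15 (adjusted p = 0.304), Hsd17b7 at -0.34 ± 0.14 (adjusted p = 0.392) and Fasn at -0.33 ± 0.13 (adjusted p = 0.400). Without the 6 h pair of arrays 3 members were called lower, Idi1 at -0.83 (adjusted p = 0.00177), Scd1 at -0.75 (adjusted p = 0.00875) and Cyp51 at -0.68 (adjusted p = 0.0138). That fit has 1 residual and 46.9 prior degrees of freedom, so its error is almost wholly the variance shared by all genes. It called 199 of 11516 genes lower, against 68 with all arrays.

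By time point the median heme difference of the cholesterol arm lay near vehicle at 6 h and below it later. At 6 h, 10 of its 17 enzymes were above vehicle, against 4205 of 11516 genes kept. The arm's median was 0.03, against -0.10 for all genes kept, and with arrays centred on their medians it was -0.08. At 24 h 14 of 17 were below vehicle, against 6123 of 11516 genes kept, with a median of -0.28 against -0.02. At 72 h 14 of 17 were below, against 5143 of 11516, with a median of -0.29 against 0.03. Being higher at 6 h and lower at both later times was seen for 8 of 17 cholesterol enzymes (Hmgcs1, Idi1, Fdps, Fdft1, Sqle, Cyp51, Msmo1 and Sc5d) and for Stard4, 9 of 32 members in all, against 7.56% of all genes kept. None of the 8 fatty acid enzymes had that pattern. With arrays centred on their medians the cholesterol count was 5.

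The sizes behind that pattern were small at 6 h and larger later. Idi1 went from 0.43 at 6 h to -0.57 at 24 h and then to -1.08 (2.12-fold lower) at 72 h. Hmgcs1 went from 0.34 to -0.55 and -0.57, Cyp51 from 0.28 to -0.71 and -0.64, and Msmo1 from 0.18 to -0.53 and -0.62. Fdps and Sqle were within 0.03 of vehicle at 6 h, so that their sign there is not distinguishable at 1 array each. Fdft1 was at 0.24 at 6 h on the probe set used and at -0.13 on its other one.

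Lower at both 24 and 72 h, whatever the 6 h value, were 17 members, 11 of 17 in the cholesterol arm and 3 of 8 in the fatty acid arm, against 25.0% of all genes kept. Lower at all 3 times were 8 members (Nsdhl, Hsd17b7, Dhcr7, Acly, Fasn, Scd1, Insig1 and Scap), against 17.4%. Dhcr7 had the largest 6 h difference of the group, with -0.67, -0.20 and -0.95 at the 3 times.

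At the 1.5-fold mark few members were reached before 72 h. At 6 h Dhcr7 was lower and Fads2 higher, against 6.89% and 3.36% of all genes kept. At 24 h Cyp51 was lower and Fads2 higher, against 2.83% and 3.7%. At 72 h 7 members were lower (Idi1, Cyp51, Msmo1, Sc5d, Dhcr7, Scd1 and Insig1), against 2.67%, and Elovl6 was higher, against 4.21%. Of these, Idi1 and Scd1 passed 2-fold at 72 h.

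**Figure D3:**
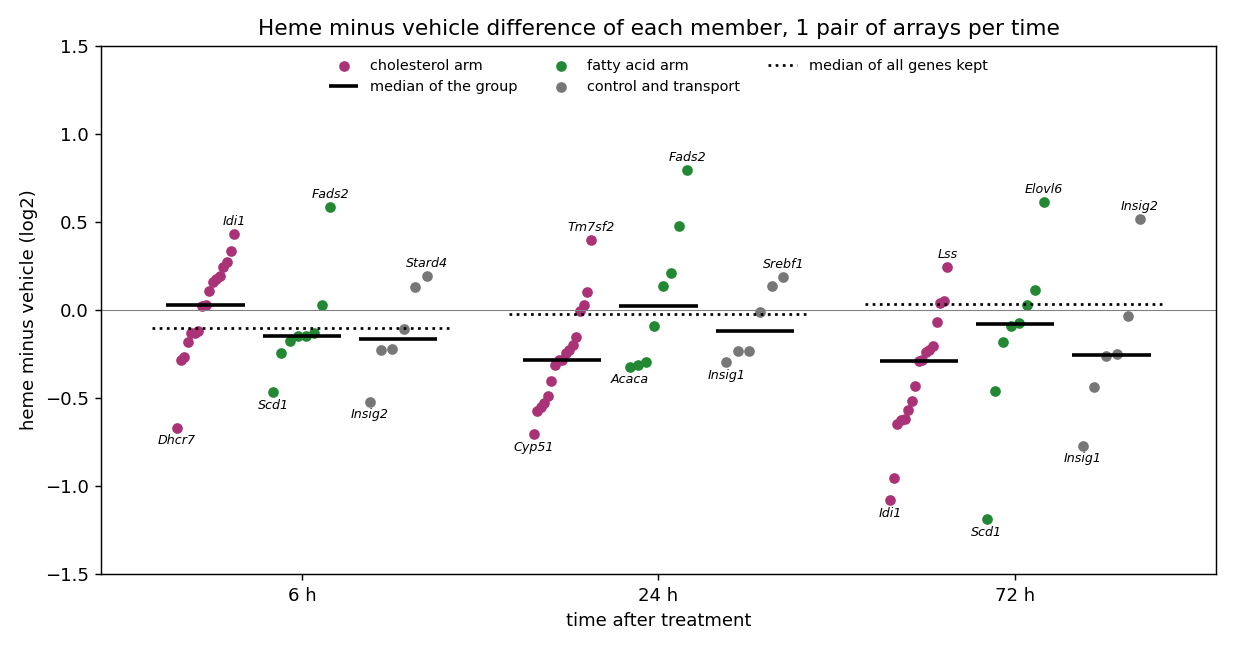
Heme minus vehicle difference (vertical axis, log2) of each cholesterol arm, fatty acid arm and control gene at 6, 24 and 72 h (horizontal axis), with the lowest and highest gene of each group named, group medians as bars and the median of all genes kept as a dotted line. The cholesterol arm's median moves from 0.03 to -0.28 and -0.29, and the fatty acid arm's from -0.15 to 0.02 and -0.08.

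The fatty acid arm had no direction with heme shared by all its enzymes. Below vehicle were 6 of its 8 enzymes at 6 h, 4 at 24 h and 5 at 72 h. Over all genes kept, 7311, 6123 and 5143 of 11516 lay below vehicle at these times. The arm's median difference ran from -0.15 at 6 h through 0.02 at 24 h to -0.08 at 72 h. The cholesterol arm's median was above it by 0.18 at 6 h and differed from it by -0.30 at 24 h and -0.20 at 72 h, and these differences kept their sign under each alternative tried. Members are not replicates, so no test was made between arms. At 6, 24 and 72 h Fads2 was above vehicle by 0.59, 0.80 and 0.12. Elovl6 went from below to above, at -0.15, 0.21 and 0.61, and Scd1 was below throughout, at -0.47, -0.31 and -1.19. Within the arm the desaturases thus ran apart: at 72 h Scd1 was 2.28-fold lower while Scd2 differed by -0.09 and Fads1 by -0.08.

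The sterol brakes also ran apart. Insig1 was below vehicle at each time, with differences of -0.22, -0.30 and -0.77. Insig2, which is known to be transcribed independently of SREBP, read 7.11, 7.43 and 6.89 in vehicle and 6.59, 7.20 and 7.40 with heme, with differences of -0.52, -0.23 and 0.52. Srebf2 was at 0.13, 0.14 and -0.44, and Srebf1 at -0.11, 0.19 and -0.26. Ggps1 differed from vehicle by 0.03 and 0.05 at 6 and 24 h, and by 0.46 at 72 h.

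Markers of other cells and states also differed between treatments, each list with its own course over the 3 times. At 6 h, 5 of 7 proliferation markers were 1.5-fold or more below vehicle with heme, against 6.89% of all genes kept. Their median was -0.74, against -0.10 for all genes kept. At 24 h, 5 of 9 neutrophil markers were 1.5-fold or more above it, against 3.7% of all genes kept, with a median of 0.96. At 72 h these medians were -0.11 for proliferation and 0.03 for neutrophil markers. The 4 fibroblast markers were all below vehicle at 6 h (median -0.21, Dcn at -0.93) and all above it at 72 h (median 0.29, Col1a2 at 0.81). Over all genes kept, 7311 of 11516 lay below vehicle at 6 h and 6369 above it at 72 h. No gene of these 3 lists passed the test over the 3 times, and their part in the members' differences was not tested.

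Genes next to the pathway were put through the same tests. Of 12 measured genes of SREBP processing and sterol trafficking, none was called for heme. Over all genes kept, 0.59% were called lower and 1.13% higher for heme. From 6 to 72 h 1 of the 12 was called lower (8.33%), against 3.53% of all genes kept. Another 1 was called higher (8.33%), against 3.06%. Tmem97, a sterol-regulated membrane protein, fell by 0.79 ± 0.18 (adjusted p = 0.0349, limma). Lipa, the lysosomal lipase that frees cholesterol from its esters, rose by 0.75 ± 0.16 (adjusted p = 0.0263). The median of the 12 was 0.11. Nceh1, a cholesteryl ester hydrolase, had the largest mean heme difference of the list, -0.46 ± 0.16 (adjusted p = 0.263), followed by Npc1 and Erlin2 at -0.16 and -0.15. Among the 9 enzymes that use isoprenoids, none was called for heme or from 6 to 72 h, against the same shares of all genes kept. Their median from 6 to 72 h was 0.06. Their largest heme differences were those of Fntb (-0.21), Coq2 (-0.19) and Rabggtb (0.18).

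Of 17 further genes of fatty acid and glycerolipid synthesis, none was called for heme. Called lower from 6 to 72 h were 2 of the 17 (11.8%), against 3.53% of all genes kept. These were Hsd17b12, which reduces fatty acyl chains during elongation, at -0.82 ± 0.16 (adjusted p = 0.0173), and Aacs, which activates acetoacetate for lipid synthesis, at -0.92 ± 0.17 (adjusted p = 0.0115). The 17 genes had a median of -0.17. Acss2, which makes acetyl-CoA from acetate, read 6.85, 6.46 and 6.51 in vehicle and 7.58, 7.27 and 6.92 with heme. It was above vehicle in all 3 pairs, with a mean of 0.65 ± 0.14 (adjusted p = 0.0655). Lpin1 and Mid1ip1 followed at -0.41 and -0.32.

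NADPH, which both arms consume, is supplied by enzymes of which 2 of 5 measured were called higher with heme, against 1.13% of all genes kept. Me1, the cytosolic malic enzyme, read 4.97, 4.96 and 4.80 in vehicle, below the level filter, and 6.62, 7.33 and 7.59 with heme. Its mean difference was 2.27 ± 0.20 (adjusted p = 0.00096), and as the vehicle arrays lay below the filter this may understate the ratio. Pgd, of the pentose phosphate pathway, read 10.97, 11.16 and 11.11 in vehicle and 11.65, 11.99 and 11.75 with heme, and rose by 0.72 ± 0.13 (adjusted p = 0.0328). The heme arrays of both genes lay above all their vehicle arrays, a pattern whose share over all genes was not counted. None of the 5 was called from 6 to 72 h, where their median was 0.18.

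Genes of LXR and sterol efflux, which act when sterol is plentiful, mostly went up with time. From 6 to 72 h, 5 of 9 were called higher, against 3.06% of all genes kept. These were Apoe at 4.39 ± 0.33, Pltp at 2.55 ± 0.23, Abca1 at 2.05 ± 0.17, Cyp27a1 at 1.36 ± 0.21 and Mylip at 1.15 ± 0.19 (adjusted p from 0.000163 to 0.00801). Abca1, the transporter that loads cholesterol onto apolipoproteins, read 7.87, 9.07 and 9.75 in vehicle and 7.82, 9.27 and 10.05 with heme. It was called higher by 24 h already. Ch25h, which makes the oxysterol that restrains SREBP, went the other way and fell by 1.54 ± 0.33 (adjusted p = 0.024). Over the 9 genes the median was 1.15.

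With heme 1 of these 9 genes was called lower, against 0.59% of all genes kept. Abcg1, the transporter that passes cholesterol to lipoproteins, read 10.26, 10.50 and 10.55 in vehicle and 9.57, 9.85 and 9.56 with heme. The groups did not overlap, a pattern whose share over all genes was not counted. Abcg1 was lower with heme by 0.78 ± 0.14 (1.71-fold; adjusted p = 0.0286). Abca1 differed by 0.15 ± 0.14 (adjusted p = 0.842) and was the 1 gene of the 9 with a mean difference above 0. The other 8 lay below 0, against 6750 of 11516 genes kept. The median of the 9 was -0.31, against -0.035 for all genes kept. After Abcg1 the largest were Apoe at -0.62 ± 0.27 (adjusted p = 0.457, limma) and Cyp27a1 at -0.44 ± 0.17 (adjusted p = 0.380). Both means rested mostly on 1 pair of arrays. At 6, 24 and 72 h the differences were -0.36, -1.61 and 0.095 for Apoe and -0.92, -0.21 and -0.19 for Cyp27a1.

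**Figure D4:**
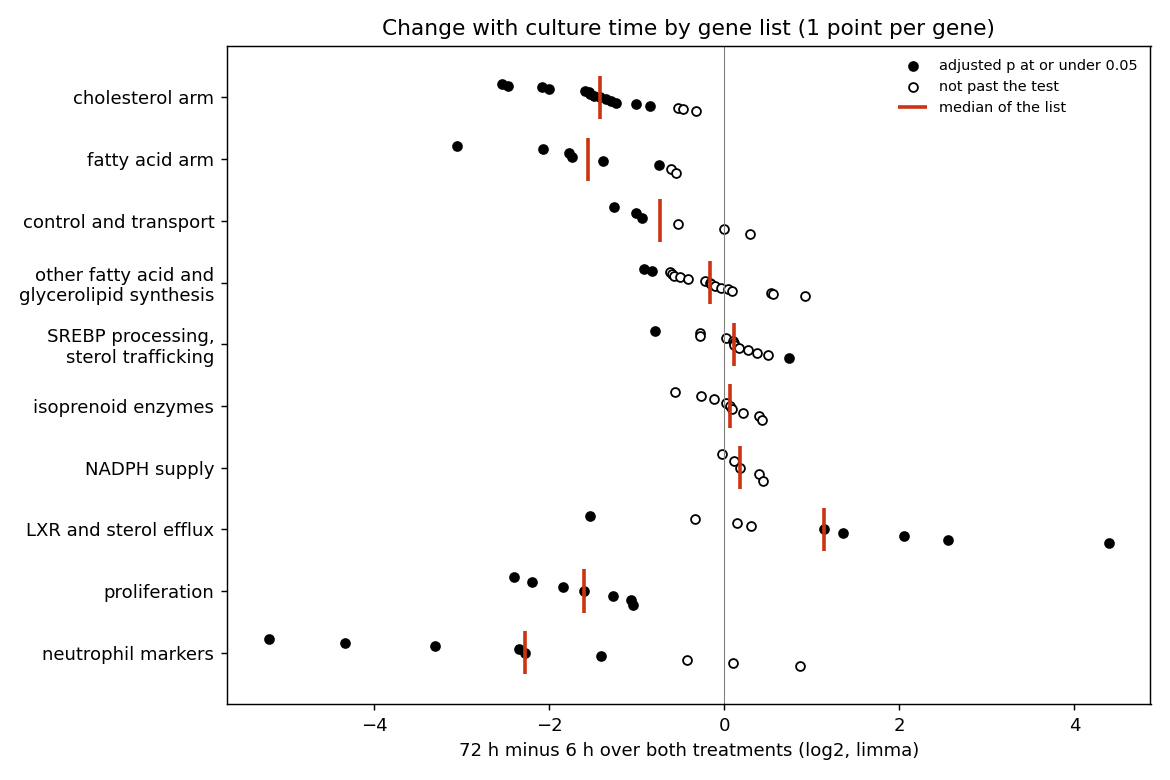
Change from 6 to 72 h over both treatments (horizontal axis, log2, limma) of each gene kept, by list (vertical axis), filled where the adjusted p was at or under 0.05, with the list's median as a bar. The cholesterol and fatty acid arms centre at -1.42 and -1.56, the neighbouring lipid lists near 0, the LXR and sterol efflux list at 1.15, and the proliferation and neutrophil markers at -1.60 and -2.27.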

How the data were processed

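Per the labels, each of 6 arrays held biotinylated cRNA of the adherent cells of 1 sample. The authors deposited log2 values after RMA quantile normalization in ArrayStar, per the series' design text and the submitters' processing notes, while software versions and the genome build are not stated in those sources. Of 35556 probe sets, 21789 named 1 gene, 1621 several and 12146 none in the platform annotation. A gene was kept where its highest array reached the median of all values (5.37), 11516 of 19938 genes. limma 3.58.1 in R 4.3.3 fitted treatment plus time point (2 residual degrees of freedom) with Benjamini-Hochberg adjustment over all genes kept and a threshold of 0.05, and the script was tested on simulated data. With 1 array per treatment and time, p-values measure only how much a difference varied between these arrays; nothing says whether they are separate cultures, and their number limits the precision. At single times differences were counted at 1.5-fold. Members and lists were chosen with earlier results of these data known. Named in full were members past a test (up to 12 by mean difference) and the 3 highest and 3 lowest heme differences at each time; other lists gave genes past the heme test or up to 3 by size, and genes called with time were named after their values were seen. Promoters are from RefSeq (GRCm38.p6). Alternatives covered scaling, filters, probe sets, variance models, thresholds and leaving out each pair.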

Additional observations from a re-analysis of the deposited data

Results flagged for a closer look

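For Idi1 and Insig2 the heme minus vehicle difference pointed one way at 6 h and the other way at 72 h, by at least 1.3-fold on each side, a mark chosen after the values were seen. The Idi1 difference at 72 h minus that at 6 h was -1.51 (log2), from 0.43 to -1.08. For Insig2, the difference at 6 h minus that at 72 h was -1.04, from -0.52 to 0.52. With 1 array per treatment and time the change between times was not tested.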

How the results depend on the processing

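The 198 genes called for heme became 18 with no time term and 12 to 521 without each pair of arrays. Members called lower for heme ranged from 0 to 3 without each pair (3 without the 6 h pair, where 199 of all genes were called lower), and were 0 under each other setting. Members lower from 6 to 24 h were 5 with arrays centred on their medians and 1 with cyclic loess, and from 24 to 72 h 16 with centring, while all genes called lower went from 43 to 89 and 16, and from 39 to 93. Calls for heme were 65.7% higher as deposited (130 against 68), 58.1% with centring (162 against 117) and 76.2% with cyclic loess (115 against 36). Calls from 6 to 24 h were 37.7% higher as deposited (26 against 43) and 48.0% with centring (82 against 89).

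At 1.5-fold, members lower at 6 h were 2 with centring, 0 with cyclic loess and 0 at 2-fold, and members higher were 0 with centring, with an offset of 16 and at 2-fold. At 24 h both counts were 0 at 2-fold. At 72 h 2 were lower at 2-fold, and 0 were higher with a repeated quantile normalization, cyclic loess, the offset or 2-fold. The 6 h medians with centring were -0.083 in the cholesterol arm and -0.26 in the fatty acid arm. The fatty acid median at 24 h was 0.13 with Srebf1 added. The count of cholesterol enzymes above vehicle at 6 h and below it later, an alternative added after seeing the data, was 5 with centring.

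The mean heme difference changed sign for 10 members, all of size 0.157 or less, and for none of the other 22. Mvk was 0.023 with repeated quantile normalization, 0.001 with cyclic loess and 0.001 with the offset. Pmvk was 0.012 with repeated quantile normalization, and Tm7sf2 was -0.016 with centring. Without each pair Mvk ranged from -0.092 to 0.132, Pmvk from -0.067 to 0.024, Fdft1 from -0.36 to 0.008, Lss from -0.018 to 0.22, Tm7sf2 from -0.167 to 0.165, Scd2 from -0.132 to 0.023, Fads1 from -0.022 to 0.25, Insig2 from -0.38 to 0.14, Srebf1 from -0.184 to 0.041 and Srebf2 from -0.15 to 0.13. The cause was not tested.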
